A study of Sus scrofa with 61 samples.

Results

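The liver of LP offspring was compared between weaning and young adulthood. The members were all arrays whose titles give LP liver at 28 dpn (days post natum) or at 188 dpn, 15 and 16 arrays with 1 animal each, which is 31 of the 61 arrays used here. The other 30 arrays, 16 at 94 dpc (days post conception) and 14 at 1 dpn, served only to describe levels at earlier stages.

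All animals were German Landrace pigs whose mothers received a low protein diet (LP, 6% crude protein) during gestation. After birth the piglets were suckled by foster sows outside the experiment and males were castrated. The animals at 28 dpn were killed at weaning and those at 188 dpn after rearing on standard feed with free access, both after an overnight fast, and the left liver lobe was sampled. Every animal of both groups thus carried the gestational LP exposure, and offspring of dams on the adequate protein diet were not analysed here. Age, body size, the change from milk to solid feed and the date of sampling differ together between the stages and cannot be told apart. The study chose litter mates in pairs and balanced the sexes, but neither litter nor sex is in the labels, so the p-values treat litter mates as independent animals.

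After birth the liver gradually takes over the work of the adult organ. It breaks down dietary amino acids and foreign compounds, stores and releases glucose and fat, secretes most plasma proteins and the iron hormone hepcidin, and hosts immune cells in its sinusoids. Around weaning, fat-rich milk gives way to feed that is rich in starch and plant compounds, and hormones such as cortisol, thyroid hormone and growth hormone set many of the enzymes that follow.

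Expression was measured on the Affymetrix GeneChip Porcine Genome Array as 1 signal intensity per probe-set and animal, compared on the log2 scale. A probe-set or gene was called where P and q (the Storey false discovery rate over all tested probe-sets) of the limma fit were both at or below 0.05. Log2 fold changes are given as 188 dpn minus 28 dpn, with their standard error (SE). Of 10992 tested probe-sets, 5928 were called (53.9%), 2009 with increased and 3919 with decreased expression at 188 dpn. Where several probe-sets shared a symbol, the one with the highest mean over the 61 arrays stood for the gene. Among 4274 tested genes, 924 were called higher (21.6%) and 1666 lower (39.0%). These shares are the background against which each group of genes is read. The values of the 2 stages did not overlap in 83 called genes (1.94%), 34 higher and 49 lower. A change of at least 1 on the log2 scale was found in 84 genes with higher and 223 with lower expression.

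The balance of higher and lower calls depended on how the arrays were scaled. The median change of all tested genes was -0.14 on the deposited scale, -0.02 after quantile normalization and 0.09 with the median of each array subtracted. Quantile normalization gave 2843 probe-sets with higher and 2838 with lower expression, and subtraction of array medians gave 3630 and 2467. Per gene, the latter gave 1678 and 1095. Medians of gene groups are therefore given relative to the median of all tested genes as well. The stages separated along the first principal component, which held 28.3% of the variance. The median signal of an array lay between 104 and 131 at 28 dpn and between 94.3 and 127 at 188 dpn. The 3′ to 5′ difference of the control probe-sets for GAPDH averaged 0.79 (SD 0.13, n = 15) at 28 dpn and 0.64 (SD 0.12, n = 16) at 188 dpn. For EF1A it was 0.39 (SD 0.11) and 0.56 (SD 0.53), and for actin 3.94 (SD 0.43) and 4.03 (SD 0.44). The actin difference was smaller at the earlier stages, 2.27 at 94 dpc and 1.78 at 1 dpn. The median of the array medians was 166.4 and 149.4 there, against 117.5 at 28 dpn and 101.1 at 188 dpn. Levels set side by side over the 4 stages carry these differences. Of the calls described, those of CYP1A1, HMGCS1, IGFBP1, ALDH1B1 and PSMB6 were lost without the 6 animals with outlying 3′ to 5′ differences. All 8 hepatocyte markers examined, among them TF, the iron carrier of plasma (log2 fold change -0.02, SE 0.10, not called), passed the signal filter at both stages, a signal above the median of the array in 50% or more of the animals. The only pancreas marker with a probe-set, CPA1, and the only muscle marker, CKM, lay below it at both stages. In whole tissue, fewer cells of a type and less RNA per cell cannot be told apart.

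Genes outside the lists of cell division, macrophages, protein folding, urea synthesis and actin were ranked with signals below the array median raised to it. Their largest increases without overlap between the stages were mostly, but not only, in enzymes and transporters. CYP2A19, a cytochrome P450 that oxidises skatole and coumarin, ranged from 781 to 17694 (median 3061) at 28 dpn and from 31224 to 53825 (median 36651) at 188 dpn, a log2 fold change of 3.53 (SE 0.31, q = 4.8e-11). LPIN1, the phosphatidate phosphatase that makes diacylglycerol, ranged from 109 to 307 (median 195) and then from 760 to 4569 (median 1323), a log2 fold change of 2.82 (SE 0.18, q = 1.6e-13). GPX3, the glutathione peroxidase of plasma, ranged from 248 to 1211 (median 528) and then from 1322 to 5709 (median 4252), a log2 fold change of 2.68 (SE 0.24). In each of these 3 genes the lowest animal at 188 dpn exceeded the highest at 28 dpn. The amino acid transporter subunit SLC3A1 rose by 2.64 (2.08 when signals below the array median were raised to it), the dehydrogenase DHRS7 by 1.77, and the chemokine CCL19 by 1.62. PAPSS2, which makes the sulfate donor of sulfation, rose by 1.38, the transcription factor KLF15 by 1.29, the glucose-6-phosphate transporter SLC37A4 by 1.26, and the water channel AQP1 by 1.23. LOC396781 rose by 2.39 and LOC100152327 by 1.72.

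The largest decreases without overlap were of mixed function. ALDH18A1, which starts proline and ornithine synthesis from glutamate, ranged from 718 to 3158 (median 1636) at 28 dpn and from 174 to 517 (median 326) at 188 dpn, a log2 fold change of -2.35 (SE 0.17, q = 2.3e-12). CASP1, the protease of the inflammasome, ranged from 886 to 3381 (median 1580) and then from 282 to 614 (median 369), a log2 fold change of -2.14 (SE 0.15, q = 1.3e-12). FNTA, the shared alpha subunit of the protein prenyltransferases, had a change of -2.80 (SE 0.22) at its strongest probe-set, but -0.78 when its 3 probe-sets were averaged. PCLAF, a replication factor, fell by 3.22, or by 1.64 with signals below the array median raised to it, and LOC100519808 fell by 2.55, or by 1.40 in the same way. The Rac exchange factor ARHGEF6 fell by 1.64, the syntaxin STX11 by 1.54, the sorting nexin SNX10 and the lysyl oxidase homologue LOXL4 by 1.50 each, the kinase inhibitor CAMK2N1 by 1.60, MAT2A by 1.49 and SNRPN by 1.31. ALDH18A1 had medians of 7384 at 94 dpc and 6181 at 1 dpn, so its level was lower at each later stage, whereas CASP1 had medians of 352 and 465 there and was highest at 28 dpn.

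**Figure D1:**
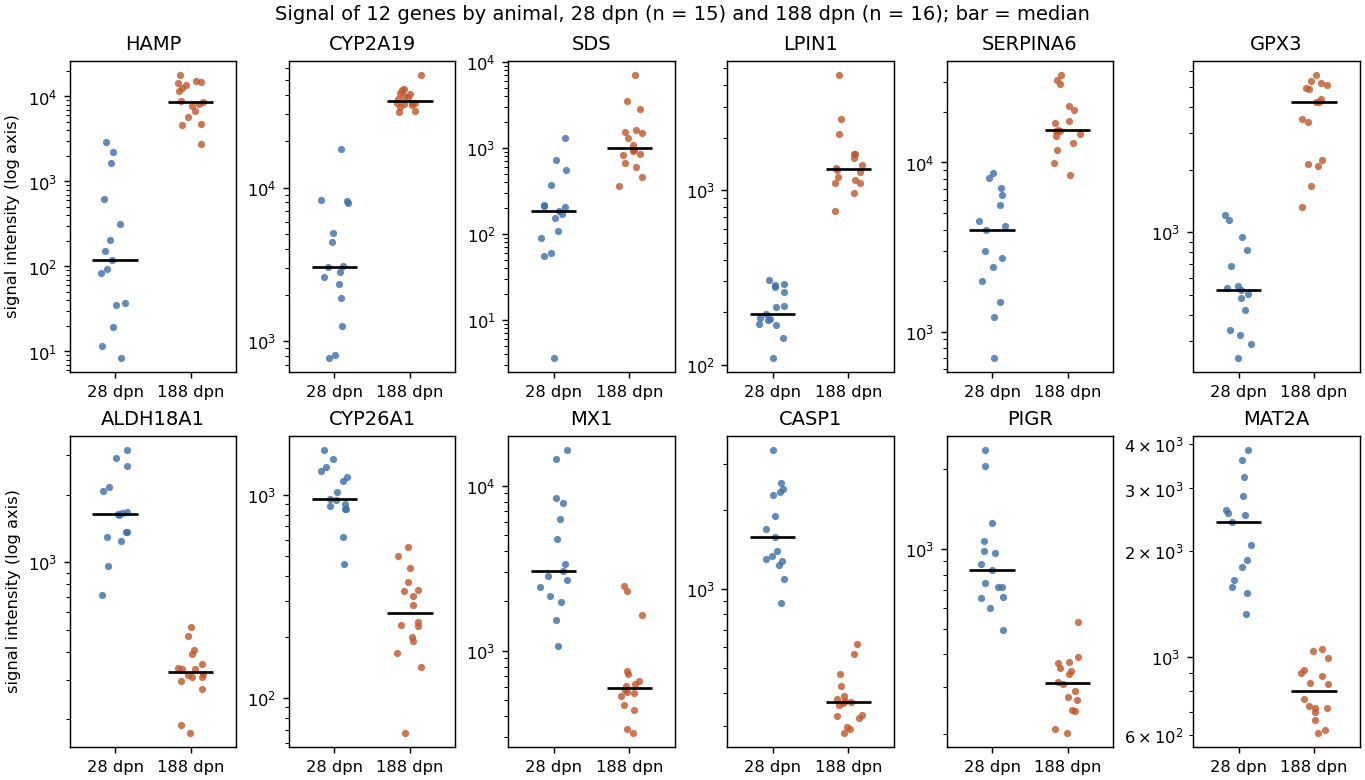
Signal intensity (log axis) of 12 genes in each of the 15 animals at 28 dpn and 16 at 188 dpn, with bars at the medians. The first 6 genes, from HAMP to GPX3, were called higher at 188 dpn and the last 6, from ALDH18A1 to MAT2A, lower. CYP2A19, LPIN1, GPX3, ALDH18A1, CASP1 and MAT2A did not overlap between the stages, and 1 animal at 28 dpn exceeded the lowest animal at 188 dpn for HAMP.

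The largest change of all called genes was in the iron hormone. HAMP encodes hepcidin, which blocks the iron exporter ferroportin and so limits the entry of iron into blood. Its signal ranged from 8.44 to 2941 (median 119) at 28 dpn and from 2778 to 17795 (median 8706) at 188 dpn, a log2 fold change of 5.97 (SE 0.65, q = 3.3e-09). The stages were nearly separate: 1 animal at 28 dpn exceeded the lowest at 188 dpn, and 15 of 16 animals at 188 dpn exceeded every animal at 28 dpn. In 7 of the 15 animals at 28 dpn HAMP lay below the array median, and with such signals raised to the array median the change was 5.05. The medians at 94 dpc and 1 dpn were 2196 and 4542, so weaning was the stage with the lowest level of the 4. The iron and heme list, HAMP included, moved in both directions, with 6 of 16 tested members higher and 5 lower. ALAD, the second enzyme of heme synthesis, rose without overlap from a median of 9694 to one of 18194 (log2 fold change 0.91, SE 0.09, q = 4.0e-10), and BLVRA, a biliverdin reductase, rose by 0.77. The iron importer SLC11A2 fell by 0.70, and the iron regulatory protein IREB2 by 0.66. CD163, the haemoglobin scavenger receptor of macrophages, fell by 1.52. TF was not called.

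Enzymes of drug metabolism were higher at 188 dpn more often than genes in general. Of 12 tested cytochromes P450 and their partners, 6 were called higher and 1 lower, with a median change of 0.35, which is 0.49 above that of all tested genes. After quantile normalization these counts were 5 and 3. CYP2B22, of the phenobarbital-inducible CYP2B family, ranged from 17.4 to 385 (median 50.7) at 28 dpn and from 351 to 2074 (median 785) at 188 dpn, a log2 fold change of 3.87 (SE 0.37, q = 3.0e-10), or 2.67 with the array median as the floor. It lay below the array median in 11 of 15 animals at 28 dpn and in 0 of 16 at 188 dpn, where 15 animals exceeded every animal at 28 dpn. CYP2J34 rose by 1.46 (SE 0.56) and CYP3A29 by 0.90 (SE 0.18). The spread of CYP2A19 was also uneven, with an SD of 1.28 on the log2 scale at 28 dpn and 0.20 at 188 dpn. CYP1A1, the enzyme induced through the aryl hydrocarbon receptor, was the exception, with medians of 668 and 235 and a change of -1.19 (SE 0.45, q = 0.0083). This call was lost without the 6 animals with outlying 3′ to 5′ differences (-1.05).

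Conjugation showed a similar balance, with 9 of 14 tested enzymes higher and 2 lower and a median 0.56 above that of all genes. PAPSS2 ranged from 408 to 966 (median 805) and then from 1024 to 3415 (median 1910), without overlap. The sulfotransferase SULT1A3 rose from a median of 5924 to one of 14738 (log2 fold change 1.34, SE 0.27, q = 4.2e-05), the glutathione transferase GSTM3 by 1.13 (SE 0.39) and the methyltransferase INMT by 0.80. GSTA4, which conjugates products of lipid peroxidation, fell from a median of 3464 to one of 922 (log2 fold change -1.54, SE 0.27, q = 5.9e-06), or by 0.85 with its 2 probe-sets averaged. Of 16 tested flavin monooxygenases, aldehyde oxidases, alcohol and aldehyde dehydrogenases, 9 were higher and 2 lower, among them DHRS7, ALDH7A1 (1.04, lysine breakdown) and ALDH1L1 (1.00, folate oxidation) as increases and DHRS4 (-0.70) as a decrease. Bile acid genes had another balance, which turned to 5 higher and 3 lower with array medians subtracted. Of these, 2 of 15 were higher, the sterol hydroxylase CYP27A1 (0.75) and the side chain oxidase ACOX2 (0.58). Another 4 were lower, including ABCB1 (-0.98), the multidrug exporter.

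The breakdown of amino acids held many of the increases. Of 28 tested genes for amino acids other than the branched-chain ones, 21 were higher (75.0%) and 4 lower, with a median change of 0.56, or 0.70 above all genes. Quantile normalization left 15 higher and 3 lower. SDS, serine dehydratase, which turns serine into pyruvate, ranged from 3.66 to 1298 (median 184) at 28 dpn and from 360 to 6944 (median 1003) at 188 dpn, a log2 fold change of 2.89 (SE 0.53, q = 1.3e-05). The 2 stages overlapped in part for SDS, since 4 animals at 28 dpn exceeded the lowest at 188 dpn. DDO, D-aspartate oxidase, ranged from 45.4 to 494 (median 175) and then from 367 to 1099 (median 742), a log2 fold change of 2.18 (SE 0.23, q = 1.6e-09). SHMT1, which splits serine into glycine and a folate-bound carbon, rose from a median of 5515 to one of 12956 (log2 fold change 1.14, SE 0.10), and TAT, tyrosine aminotransferase, from 6691 to 14933 (1.09, SE 0.17). GLUL, the glutamine synthetase of hepatocytes around the central vein, is in this list although it makes an amino acid, and it was lower. It ranged from 9236 to 21365 (median 15286) at 28 dpn and from 2700 to 11312 (median 4189) at 188 dpn, a log2 fold change of -1.57 (SE 0.18, q = 5.0e-09).

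Branched-chain amino acid breakdown was higher in smaller steps. Of 18 tested genes 12 were higher and 1 lower, with a median of 0.37, or 0.51 above all genes, and 10 and 1 after quantile normalization. HSD17B10, a dehydrogenase of isoleucine breakdown, ranged from 9270 to 19719 (median 13003) and then from 16858 to 29768 (median 20199), a log2 fold change of 0.72 (SE 0.12, q = 2.2e-06). IVD, of leucine breakdown, rose by 0.69 (SE 0.18), ABAT by 0.68 and BCKDHB, a subunit of the branched-chain ketoacid dehydrogenase, by 0.66. Its partner subunit DBT was not called (-0.08), and neither was the transaminase BCAT2 (-0.12). BCAT1, the cytosolic transaminase, had medians of 196 and 143 and a change of -0.83 (SE 0.22), or -1.55 with its probe-sets averaged. The study had picked 7 genes of this pathway as increased, from the same arrays set against offspring of the adequate protein diet, which is no independent evidence. The 5 with a probe-set, IVD, AUH, ECH1, ACAA1 and ALDH1B1, were all called higher, by 0.36 to 0.69, while ALDH1B1 lost its call under the Benjamini-Hochberg adjustment, without the intensity filter and without the 6 animals with outlying 3′ to 5′ differences. AUH, ECH1 and ACAA1 are also the 3 members of its fatty acid elongation list.

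Methionine and folate metabolism included opposite changes in paired enzymes. MAT1A and MAT2A both make S-adenosylmethionine, the methyl donor, MAT1A as the form of the adult hepatocyte and MAT2A as the form of fetal and dividing cells. MAT1A ranged from 7726 to 14137 (median 10653) at 28 dpn and from 12486 to 22458 (median 18318) at 188 dpn, a log2 fold change of 0.85 (SE 0.10, q = 6.2e-09). MAT2A ranged from 1324 to 3849 (median 2412) and then from 610 to 1051 (median 798), a log2 fold change of -1.49 (SE 0.13, q = 1.0e-10). MAT2B, the regulatory subunit that binds MAT2A, fell by 0.60. Over the 4 stages the median of MAT1A was 6001, 6386, 10653 and 18318, and that of MAT2A was 4695, 4150, 2412 and 798. GNMT, the glycine methyltransferase that consumes S-adenosylmethionine, rose from 8398 to 17187 (1.02, SE 0.14). Of the 21 tested members of the list 12 were higher and 6 lower. The mitochondrial folate enzyme MTHFD2 fell by 0.75, or by 0.35 with the array median as the floor, and PEMT, which methylates phosphatidylethanolamine, fell by 0.77.

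Genes for the synthesis of amino acids and for the ATF4 response, the program switched on when amino acids are scarce, had 9 of 20 tested members lower and 5 higher, close to the shares of all genes. The decreases were the larger ones. PSPH, the last enzyme of serine synthesis, had medians of 641 and 218 (log2 fold change -1.99, SE 0.31, q = 1.5e-06), ASNS, asparagine synthetase, 611 and 242 (-1.59, SE 0.24), and PYCR1, the last enzyme of proline synthesis, 385 and 180 (-1.08, SE 0.23). The transcription factor ATF5 fell by 1.67 (SE 0.29). PHGDH, the first enzyme of serine synthesis, and PSAT1, the next, went against PSPH. PHGDH ranged from 221 to 2375 (median 1257) and then from 873 to 5988 (median 2481), a log2 fold change of 1.00 (SE 0.27), and PSAT1 rose by 0.54. ASNS had medians of 9969 and 7527 at 94 dpc and 1 dpn, so most of its decrease from the fetal level preceded 28 dpn.

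**Figure D2:**
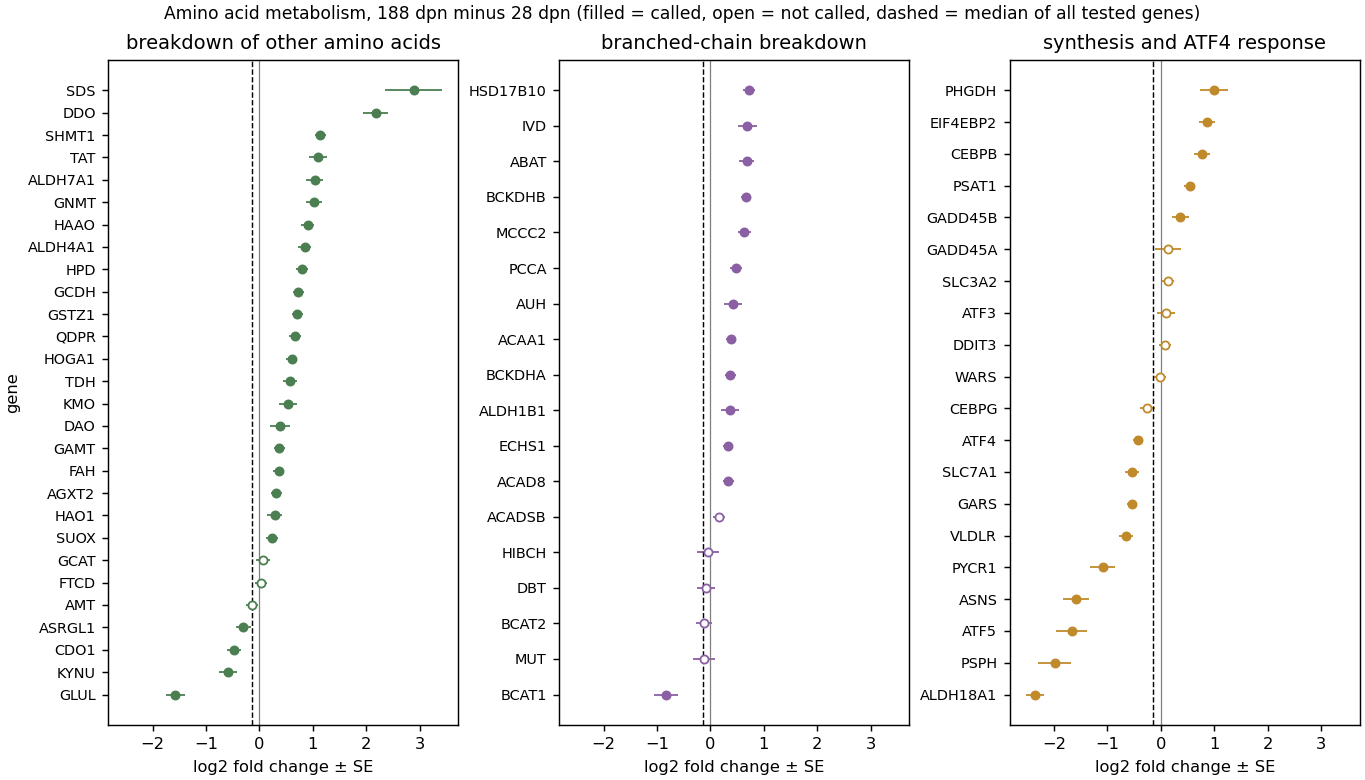
Log2 fold change (188 dpn minus 28 dpn) with its SE for every tested gene of 3 lists: breakdown of amino acids other than the branched-chain ones (28 genes), branched-chain breakdown (18) and synthesis with the ATF4 response (20). Filled points were called, open points were not, and the dashed line marks the median of all tested genes. Most points of both breakdown lists lie right of the line, with GLUL, a synthetase, and BCAT1 as the lowest. The synthesis list runs from ALDH18A1 at -2.35 to PHGDH at 1.00.

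In fatty acid and triglyceride synthesis 10 of 24 tested genes were higher and 6 lower. Next to LPIN1, SCD, the desaturase that makes oleate, ranged from 1497 to 10854 (median 2586) and then from 2391 to 24964 (median 8206), a log2 fold change of 1.49 (SE 0.30, q = 4.8e-05). ME1, the malic enzyme that supplies NADPH, rose by 1.36 (SE 0.21), or by 0.73 with the array median as the floor, and FITM1, a fat storage protein, by 0.99. FASN, fatty acid synthase, had medians of 1942 and 3482 and a change of 0.84 (SE 0.31), which with its 4 probe-sets averaged was 0.48 and not called. PLIN2, the coat protein of lipid droplets, had medians of 1082 and 421 and a change of -0.97 (SE 0.32). The elongase ELOVL6 (-0.21) and the regulator SREBF1 (-0.03) were not called. PLIN2 was highest at 1 dpn, with a median of 9241, while SCD had its highest median, 28361, at 94 dpc.

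Genes of fatty acid oxidation and ketone bodies numbered 14 higher and 7 lower of 34 tested, and 11 and 7 after quantile normalization. ANGPTL4, a fasting-induced inhibitor of lipoprotein lipase, ranged from 673 to 1795 (median 1167) and then from 1326 to 5317 (median 2450), a log2 fold change of 1.26 (SE 0.17, q = 1.9e-07). PDK4, the kinase that shuts pyruvate dehydrogenase, rose by 0.86 (SE 0.24). The acyl-CoA synthetase ACSL3 fell by 1.21 and the carnitine transporter SLC22A5 by 0.95. In cholesterol metabolism 5 of 20 were higher and 7 lower, but 6 and 5 with array medians subtracted. ABCA1, the exporter that loads HDL, ranged from 534 to 1638 (median 854) and then from 208 to 654 (median 385), a log2 fold change of -1.23 (SE 0.17). INSIG1, which retains the SREBP complex in the endoplasmic reticulum, rose by 0.98 (SE 0.20), whereas its homologue INSIG2 fell by 0.80 (SE 0.16). HSD17B7 fell by 0.79. HMGCS1, the entry enzyme of the pathway, had a change of -1.07 (SE 0.42), and its call was lost without the 6 animals with outlying 3′ to 5′ differences (-0.86). Lipoprotein genes were called 4 higher and 4 lower of 15, but 2 and 5 of 10 after quantile normalization and 6 and 3 of 17 with array medians subtracted. APOA4, an apolipoprotein that rises with triglyceride secretion, ranged from 307 to 3590 (median 898) and then from 607 to 21942 (median 2451), a log2 fold change of 2.00 (SE 0.48, q = 0.00031). APOM fell by 0.85 (SE 0.11), APOO by 0.76 and APOB, the structural protein of VLDL, by 0.71 (SE 0.14).

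In glycolysis, fructose and glycogen metabolism 13 of 26 tested genes were lower (50.0%) and 3 higher, but 9 and 7 of 33 with array medians subtracted. PPP1R3B, which brings phosphatase to glycogen, ranged from 1257 to 3447 (median 1904) and then from 306 to 2095 (median 753), a log2 fold change of -1.31 (SE 0.21, q = 1.5e-06). The transporters SLC2A8 (-1.20, SE 0.35) and SLC2A3 (-0.80) and GALK1, the galactokinase that handles the sugar of lactose (-0.82, SE 0.15), were lower, as was LDHA (-0.77, SE 0.09). KHK, which phosphorylates fructose, was higher and ranged from 2766 to 6535 (median 4502) and then from 4667 to 9671 (median 7193), a log2 fold change of 0.70 (SE 0.12). Its medians at 94 dpc and 1 dpn were 57.2 and 95.8. In gluconeogenesis and the citrate cycle, 13 of 30 were higher and 12 lower, but 8 and 11 after quantile normalization and 17 and 6 with array medians subtracted. The transaminase GPT ranged from 183 to 372 (median 262) and then from 426 to 1172 (median 674), without overlap (log2 fold change 1.36, SE 0.13, q = 2.1e-10). GOT1 rose by 1.27 (SE 0.14) and SLC37A4 by 1.26. PCK1, the rate-setting enzyme of glucose synthesis, rose from a median of 19760 to one of 30390 (0.60, SE 0.14), although it ranks below the 5 largest changes of its list. FBP2 fell by 1.09 (SE 0.22), GK by 1.02 (SE 0.13) and MDH1 by 0.86.

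Subunits of oxidative phosphorylation were called 16 higher and 6 lower of 27 tested, but this balance rested on the scaling, since 8 were higher and 7 lower after quantile normalization, with a median of -0.01. NDUFA1 (0.81, SE 0.27, or 0.54 with its probe-sets averaged), COX7A1 (0.74, SE 0.14) and CYCS, cytochrome c (-0.86, SE 0.17), were called under both. Only 3 cytosolic ribosomal proteins varied enough between animals to be tested, and 2 of them were higher. With array medians subtracted 49 were called higher, and after quantile normalization 1 was higher and 1 lower. Peroxisomal genes numbered 8 higher and 5 lower of 28, but 15 and 2 of 29 with array medians subtracted. Nucleotide metabolism had 3 and 4 of 19, but 9 and 2 of 21 with array medians subtracted. Signaling by mTOR, AMPK and insulin had 7 and 5 of 20, but 13 and 4 of 22 with array medians subtracted.

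Genes that carry, convert or follow steroid and thyroid hormones were more often higher. Of 16 tested genes in sex steroid, glucocorticoid and thyroid hormone metabolism, 9 were higher and 3 lower, and as many after quantile normalization. SERPINA6, the globulin that carries cortisol in plasma, ranged from 700 to 8624 (median 3971) at 28 dpn and from 8405 to 32806 (median 15480) at 188 dpn, a log2 fold change of 2.33 (SE 0.29, q = 2.5e-08). The ranges of SERPINA6 barely met. TSC22D3, a target of the glucocorticoid receptor, ranged from 1180 to 3073 (median 2111) and then from 2443 to 8524 (median 4501), a log2 fold change of 1.15 (SE 0.15, q = 4.8e-08). PER1, a clock gene that glucocorticoids also induce, ranged from 812 to 1455 (median 1129) and then from 1426 to 4062 (median 2580), a log2 fold change of 1.18 (SE 0.12). FKBP5, another known target, was not called (-0.15). HSD17B2, which inactivates estradiol and testosterone, rose by 1.07 (SE 0.22) and HSD3B1 by 0.96 (SE 0.19). DIO1, the hepatic deiodinase that activates thyroid hormone and answers to it, fell from a median of 1564 to one of 707 (SE of the log2 fold change 0.25, q = 0.00014), and the thyroid hormone receptor THRB had medians of 123 and 81.2 (-0.63, SE 0.22), near the array median, or a change of -0.22 with signals below it raised to it.

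Clock genes were called higher in 6 of 11 cases (54.5%) and lower in 0, with the same counts after quantile normalization. With PER1, the output factor DBP ranged from 427 to 1253 (median 734) and then from 863 to 2334 (median 1470), a log2 fold change of 0.95 (SE 0.16, q = 4.1e-06). NFIL3 rose by 0.64 and USP2 by 0.56, the latter without a call when all 4 stages were fitted together. The core factor ARNTL (0.18) and BHLHE40 (-0.27) were not called. The hour of sampling is not given in the sources used here, so its part in these values was not tested. Among immediate early genes, which respond to signals within minutes, 10 of 21 were higher and 3 lower. FOS ranged from 508 to 2043 (median 909) and then from 927 to 4682 (median 1787), a log2 fold change of 1.06 (SE 0.23), and BTG2 rose by 0.83 and ZFP36 by 0.73. KLF4 (1.14) and FOSL2 (0.94) had signals near the median of their arrays. With that floor KLF4 failed the filters, and FOSL2 had a change of 0.45. Of 21 nuclear receptors and liver transcription factors, 7 were higher and 3 lower. KLF15, which promotes amino acid breakdown and is induced by glucocorticoids, ranged from 824 to 1568 (median 1343) and then from 1735 to 4553 (median 3579), a log2 fold change of 1.29 (SE 0.12, q = 2.0e-10). CEBPB rose by 0.76 (SE 0.15) and RXRA by 0.61.

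In the growth hormone and IGF axis 4 of 14 tested genes were higher and 3 lower. IGFALS, which holds IGF in the large plasma complex, rose by 0.80 (SE 0.19), and IGFBP1 by 0.86 (SE 0.33). The call of IGFBP1 was lost without the 6 animals with outlying 3′ to 5′ differences (0.73) and with its 2 probe-sets averaged (0.25). IGF1 had medians of 640 and 1004 and a change of 0.43 (SE 0.22) that was not called. However, IGF1 was called higher after quantile normalization and when the 6 animals with outlying 3′ to 5′ differences were left out. Weighting the arrays, or subtracting their medians, also gave a call for IGF1. PEG10, an imprinted fetal gene, fell by 1.75 (SE 0.30), or by 0.77 with the array median as the floor. In order of age its medians at the 4 stages were 38692, 12242, 183 and 52.1.

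**Figure D3:**
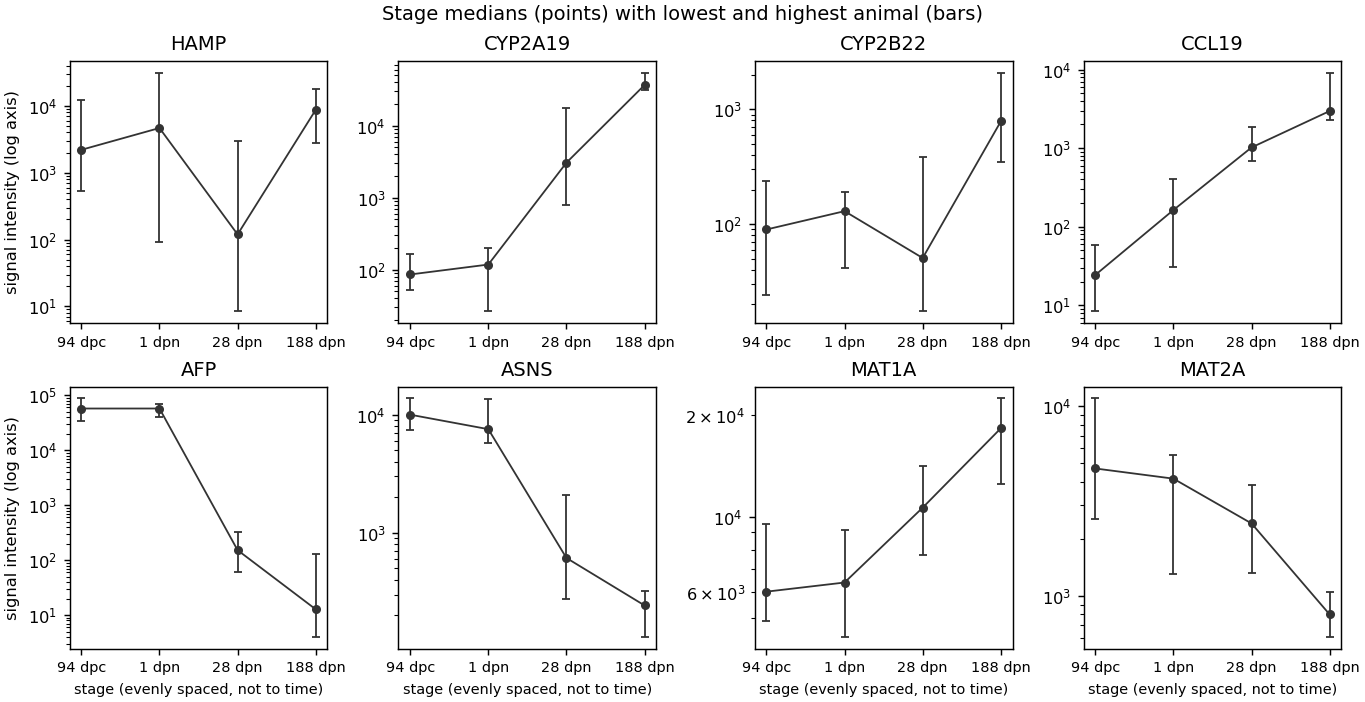
Median signal (points, log axis) with the lowest and highest animal (bars) of 8 genes at 94 dpc (n = 16), 1 dpn (n = 14), 28 dpn (n = 15) and 188 dpn (n = 16), with the stages spaced evenly. HAMP and CYP2B22 had their lowest medians at 28 dpn, CYP2A19, CCL19 and MAT1A their highest at 188 dpn, and AFP, ASNS and MAT2A their lowest at 188 dpn.

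Interferon response genes were lower at 188 dpn almost throughout. Of 32 tested genes 29 were called lower (90.6%) and 0 higher, with a median change of -1.03, or -0.90 relative to all genes. Quantile normalization gave 28 lower and 0 higher, and subtraction of array medians 26 and 0. MX1, an antiviral GTPase, ranged from 1071 to 16347 (median 3058) at 28 dpn and from 318 to 2472 (median 591) at 188 dpn, a log2 fold change of -2.48 (SE 0.35, q = 2.3e-07). ISG15, a ubiquitin-like modifier, ranged from 2061 to 41392 (median 6876) and then from 874 to 9418 (median 1303), a log2 fold change of -2.30 (SE 0.41). IRF7, the factor that amplifies interferon production, fell by 2.63 (SE 0.43), the deconjugase USP18 by 1.94 (SE 0.27), and the RNA-binding IFIT1 and the exonuclease ISG20 by 1.84 each. IRF3 (-0.21), IRF8 (-0.05) and the chemokine CXCL9 (-0.12) were not called.

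The animals at 28 dpn differed widely in these genes. The mean log2 signal of the 32 genes ranged from 9.05 to 10.89 (median 9.73) at 28 dpn and from 8.38 to 9.64 (median 8.74) at 188 dpn. At 28 dpn 9 of 15 animals lay above every animal at 188 dpn, and 13 of 16 animals at 188 dpn lay below every animal at 28 dpn. A single animal at 28 dpn had the highest signal of its stage in 11 of the 32 genes. The medians at 94 dpc and 1 dpn were 8.05 and 8.92, so weaning was the stage with the highest median. Of the genes above the array median in every animal at 28 dpn, RSAD2 and ISG15 were among the 6 with the largest spread. Their SDs were 1.45 and 1.37 on the log2 scale. The summed signal of the 5 Kupffer cell markers ranged from 18579 to 30567 at 28 dpn and from 17269 to 21662 at 188 dpn, with 4 of 4 tested markers lower. Of 24 tested macrophage genes 18 were lower, and the part of these cells in the interferon result was not tested.

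**Figure D4:**
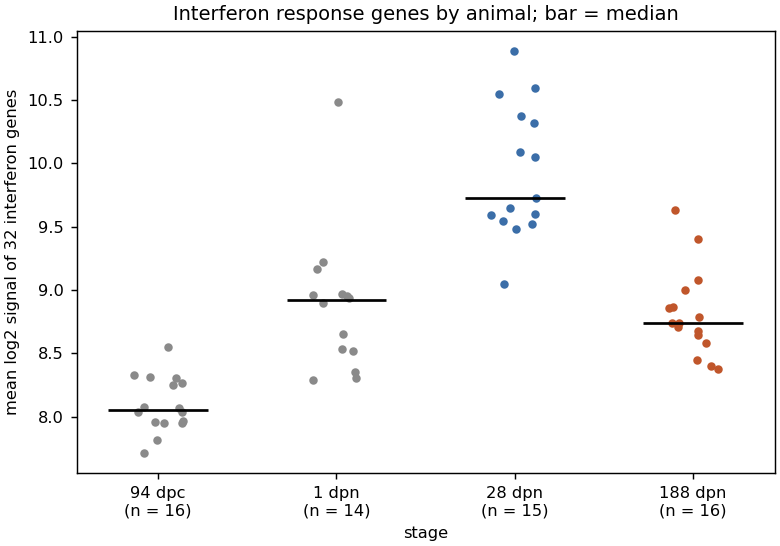
Mean log2 signal of the 32 tested interferon response genes in each animal, by stage, with bars at the medians (16, 14, 15 and 16 animals). The median was highest at 28 dpn (9.73) and fell to 8.74 at 188 dpn, where 13 of 16 animals lay below the lowest animal at 28 dpn.

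For antigen presentation by class I, which shows peptides from inside the cell, 10 of 17 tested genes were lower and 1 higher. PDIA3, a chaperone of the loading complex, ranged from 8714 to 15216 (median 13017) and then from 3227 to 7514 (median 5452), without overlap (log2 fold change -1.22, SE 0.11, q = 4.8e-11). The chaperone CALR had medians of 4429 and 1977 (q = 4.7e-10). The peptide transporter TAP1 fell by 1.08 (SE 0.18), and the immunoproteasome subunits PSMB10 and PSMB8 by 0.98 and 0.75. TAP1 and PSMB8 also belong to the interferon list. The heavy chain SLA-2 (-0.11, SE 0.12) and its light chain B2M (0.02, SE 0.10) were not called. Of the 9 probe-sets of B2M, however, 2 were called higher and 3 lower. SLA-2 had medians of 26445 and 24068, but was called lower after quantile normalization. Another heavy chain, SLA-3, had medians of 10639 and 7628 and was called lower (-0.36, SE 0.16), a call that was lost under the Benjamini-Hochberg adjustment, without the intensity filter and with array medians subtracted. For class II, 5 of 13 were higher and 4 lower. SLA-DRB1 (0.58), SLA-DQB1 (0.55), SLA-DRA (0.52) and SLA-DQA1 (0.48), which form the peptide-binding chains, were called higher with SEs of 0.15 to 0.16. SLA-DRB1 was not called with its 3 probe-sets averaged (0.27). The costimulator CD86 fell by 1.12 (SE 0.30), or by 0.68 with the array median as the floor, and the reductase IFI30 by 0.64, or by 1.01 with its probe-sets averaged.

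Among 33 chemokines, cytokines and receptors, 6 were higher and 13 lower, but 9 and 9 of 34 with array medians subtracted. CCL19 and CCL21 share the receptor CCR7, which guides T cells and dendritic cells. CCL19 ranged from 693 to 1880 (median 1020) and then from 2272 to 9036 (median 2960), without overlap (log2 fold change 1.62, SE 0.18, q = 4.9e-09), and CCL21 had medians of 139 and 282 (1.08, SE 0.25). CCL19 had medians of 24.4 at 94 dpc and 163 at 1 dpn. TNFSF13, a survival factor of plasma cells, rose by 1.06 (SE 0.15). The monocyte attractant CCL8 fell by 0.99 and the cytokine IL10 by 1.22 (SE 0.16). IL18, which CASP1 activates, fell by 0.93 (SE 0.18). T cell genes gave 4 lower and 1 higher of 11, NK cell genes 3 and 0 of 9, and neutrophil genes 3 and 1 of 7. The lower shares of 36.4%, 33.3% and 42.9% were near the 39.0% of all tested genes. CD2, of T and NK cells, fell by 0.93, or by 0.49 with the array median as the floor, CD247 rose by 0.68, and CD3E (-0.03) and CD8A (-0.06) were not called. The B and plasma cell list had only 2 tested members.

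Complement and acute phase genes had shares of calls near those of all genes on the deposited scale. In complement 8 of 17 tested genes were lower (47.1%) and 3 higher, with a median 0.32 below that of all genes. After quantile normalization 9 of 14 were lower and 2 higher, and with array medians subtracted 7 of 23 were lower and 6 higher. CFP, properdin, which stabilises the alternative convertase, ranged from 1695 to 3584 (median 2575) and then from 820 to 2159 (median 1212), a log2 fold change of -1.05 (SE 0.13, q = 3.6e-08). C1QA, made by macrophages, fell by 0.97 (SE 0.14), C5 by 0.78 (SE 0.19) and the ficolin FCN1 by 0.74, or by 0.31 with the array median as the floor. MBL2, the mannose-binding lectin, ranged from 490 to 11952 (median 1838) and then from 299 to 8678 (median 1105), a log2 fold change of -0.99 (SE 0.45, q = 0.019). This call was lost under the Benjamini-Hochberg adjustment, without the intensity filter, with array medians subtracted and without the least correlated array of each stage. C9 fell by 0.57 (SE 0.10), or by 0.96 with its probe-sets averaged, but was not called when all 4 stages were fitted together. MBL2, C9 and C7, which was not called (-0.10), are the tested members of the study's own complement list, which it reports as decreased in LP offspring. Among acute phase and other plasma proteins, 9 of 21 were lower and 4 higher. After quantile normalization 9 of 14 were lower and 3 higher, and with array medians subtracted 6 of 29 were lower and 6 higher. LBP, which presents endotoxin, had medians of 16144 and 7698 (log2 fold change -1.07, SE 0.23), and LRG1 16684 and 8274 (-0.85, SE 0.15). AFP, the fetal albumin homologue, had medians of 57373, 57405, 152 and 12.6 at the 4 stages in order of age. Its change of -3.36 (SE 0.42, q = 3.5e-08) became -0.65 with the array median as the floor, since AFP lay below that median in 15 of 16 animals at 188 dpn. In coagulation 5 of 12 were higher and 3 lower, but 4 and 5 after quantile normalization.

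Genes of bile duct cells, which line the ducts and move immunoglobulin A into bile, were lower in 11 of 16 tested cases (68.8%) and higher in 3, with a median 0.43 below that of all genes. PIGR, the receptor that carries immunoglobulin A, ranged from 495 to 2364 (median 835) and then from 202 to 529 (median 311), a log2 fold change of -1.56 (SE 0.18, q = 6.0e-09). PIGR had medians of 41.7 and 72.1 at 94 dpc and 1 dpn. DEFB1, an epithelial defensin, ranged from 12834 to 30924 (median 21247) and then from 2068 to 20269 (median 3782), a log2 fold change of -2.08 (SE 0.26), but its 2 probe-sets averaged gave -0.43 and no call. KRT18, a keratin also of hepatocytes, fell by 0.83 (SE 0.13). The duct keratin KRT19 had medians of 172 and 82.6 and a change of -1.42 (SE 0.42), or -0.33 with the array median as the floor. AQP1, also of small vessels, rose from a median of 764 to one of 1812. The duct markers SOX9 and CFTR lay below the array median at both stages.

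Vessel and matrix genes moved in both directions. In sinusoidal and vascular endothelium 8 of 29 tested genes were higher and 9 lower, but 12 and 8 after quantile normalization. VWF, of large vessels, had medians of 156 and 293 (log2 fold change 1.30, SE 0.21), and the lipid receptor S1PR1 ranged from 1154 to 1907 (median 1396) and then from 1612 to 4200 (median 2351), a log2 fold change of 0.75 (SE 0.11, q = 8.0e-07), or 0.48 with its probe-sets averaged. LYVE1, of liver sinusoids and lymph vessels, fell by 0.86 (SE 0.16), the adhesion molecule VCAM1 by 0.69 (SE 0.15) and the endothelial cadherin CDH5 by 0.62 (SE 0.10). TIE1 had a change of 1.49, or 0.16 with the array median as the floor. In the list of stellate cells, fibroblasts and matrix, 11 of 39 were higher and 16 lower, but 15 and 14 after quantile normalization. THY1, of portal fibroblasts, ranged from 174 to 701 (median 368) and then from 253 to 2896 (median 1199), a log2 fold change of 1.57 (SE 0.26, q = 2.9e-06). ACTA2, of contractile cells, rose by 0.83 (SE 0.17), the secreted CYR61 by 0.88 and SPARCL1 by 0.89. The basement membrane protein NID2 fell by 0.91 (SE 0.14).

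In the proteasome, 15 of 19 tested subunits were lower (78.9%) and 2 higher, with a median 0.38 below that of all genes. PSMD14, the deubiquitinase of the lid, ranged from 780 to 1595 (median 1085) and then from 315 to 780 (median 536), a log2 fold change of -1.02 (SE 0.11, q = 5.0e-09). PSMA6 fell by 0.67, PSMC6 by 0.60, and PSMD5 and PSMA5 by 0.59 each. The catalytic subunits PSMB5 (0.24) and PSMB6 (0.27) were the 2 that were higher, and neither was called after quantile normalization, where 17 subunits were lower and 0 higher. With array medians subtracted 12 of 27 tested subunits were lower and 5 higher. In the spliceosome and its RNA-binding partners, 39 of 49 tested genes were lower (79.6%) and 4 higher, with a median 0.34 below all genes, and 35 and 3 after quantile normalization. With array medians subtracted 27 of 56 were lower and 6 higher. SNRPB2 ranged from 341 to 582 (median 511) and then from 114 to 352 (median 213), a log2 fold change of -1.15 (SE 0.13, q = 5.0e-09). The splicing factors HNRNPA2B1 (-0.96, or -0.50 over its 3 probe-sets), SRSF3 (-0.95) and HNRNPH1 (-0.94) were also lower.

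Translation factors and tRNA synthetases were called 20 lower and 7 higher of 36, but 14 and 14 with array medians subtracted. EIF4B rose by 0.76 and EIF4G3 fell by 0.83, and both are in the study's mTOR list. The study drew it from GC-RMA values of these animals, set against offspring of the adequate protein diet, and reports it as increased in LP offspring. Here 3 tested members of it were higher (EIF4B, PRKAG2 and VEGFA) and 2 lower (EIF4G3 and PPP2R1B). VEGFA (0.40) was not called with its 4 probe-sets averaged (0.13). In the secretory pathway 26 of 49 were lower and 9 higher, but 12 lower and 15 higher with array medians subtracted. KDELR3, which returns chaperones to the endoplasmic reticulum, ranged from 1297 to 2598 (median 2070) and then from 439 to 1526 (median 772), a log2 fold change of -1.36 (SE 0.13, q = 4.5e-10). STT3A and STT3B, the catalytic subunits of N-glycosylation, fell by 0.80 and 0.79. Lysosome and autophagy genes were called 9 higher and 13 lower of 32, but 11 and 10 after quantile normalization. SQSTM1, the autophagy receptor p62, ranged from 2952 to 4984 (median 3963) and then from 5005 to 12660 (median 7757), without overlap (log2 fold change 1.04, SE 0.11). GABARAPL1, of the autophagosome membrane, rose without overlap by 1.03 (SE 0.08, q = 3.9e-12), whereas the receptor OPTN fell without overlap by 1.09 (SE 0.12) and TP53INP2 fell by 1.77 (SE 0.38).

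Antioxidant and vitamin genes were mixed, with 11 higher and 9 lower of 29 and 4 higher and 7 lower of 14, the latter 4 and 3 after quantile normalization. SEPHS2, which makes selenophosphate, ranged from 3346 to 5032 (median 3940) and then from 5882 to 8762 (median 7595), without overlap (log2 fold change 0.88, SE 0.08, q = 8.1e-11), or 0.57 with its probe-sets averaged. The thioredoxin reductase TXNRD1 fell by 0.47 (SE 0.11). The peroxiredoxin PRDX6 rose by 0.97 (SE 0.11). GPX7 fell by 1.71 (SE 0.36), or by 0.75 with the array median as the floor. GULO, the last enzyme of vitamin C synthesis, ranged from 1350 to 19877 (median 8336) and then from 1884 to 8526 (median 3421), a log2 fold change of -1.02 (SE 0.29, q = 0.0014). CYP26A1, which degrades retinoic acid and is induced by it, ranged from 457 to 1658 (median 954) at 28 dpn and from 67.5 to 552 (median 260) at 188 dpn, a log2 fold change of -1.96 (SE 0.22, q = 5.5e-09). Its medians at 94 dpc and 1 dpn were 39.7 and 69.7, so weaning was its highest stage. RBP5, a cytosolic retinol carrier, fell by 0.93 (SE 0.16), whereas RARRES1 rose by 0.73. In the list of retinoid metabolism 3 of 7 tested genes were higher and 3 lower.

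**Figure D5:**
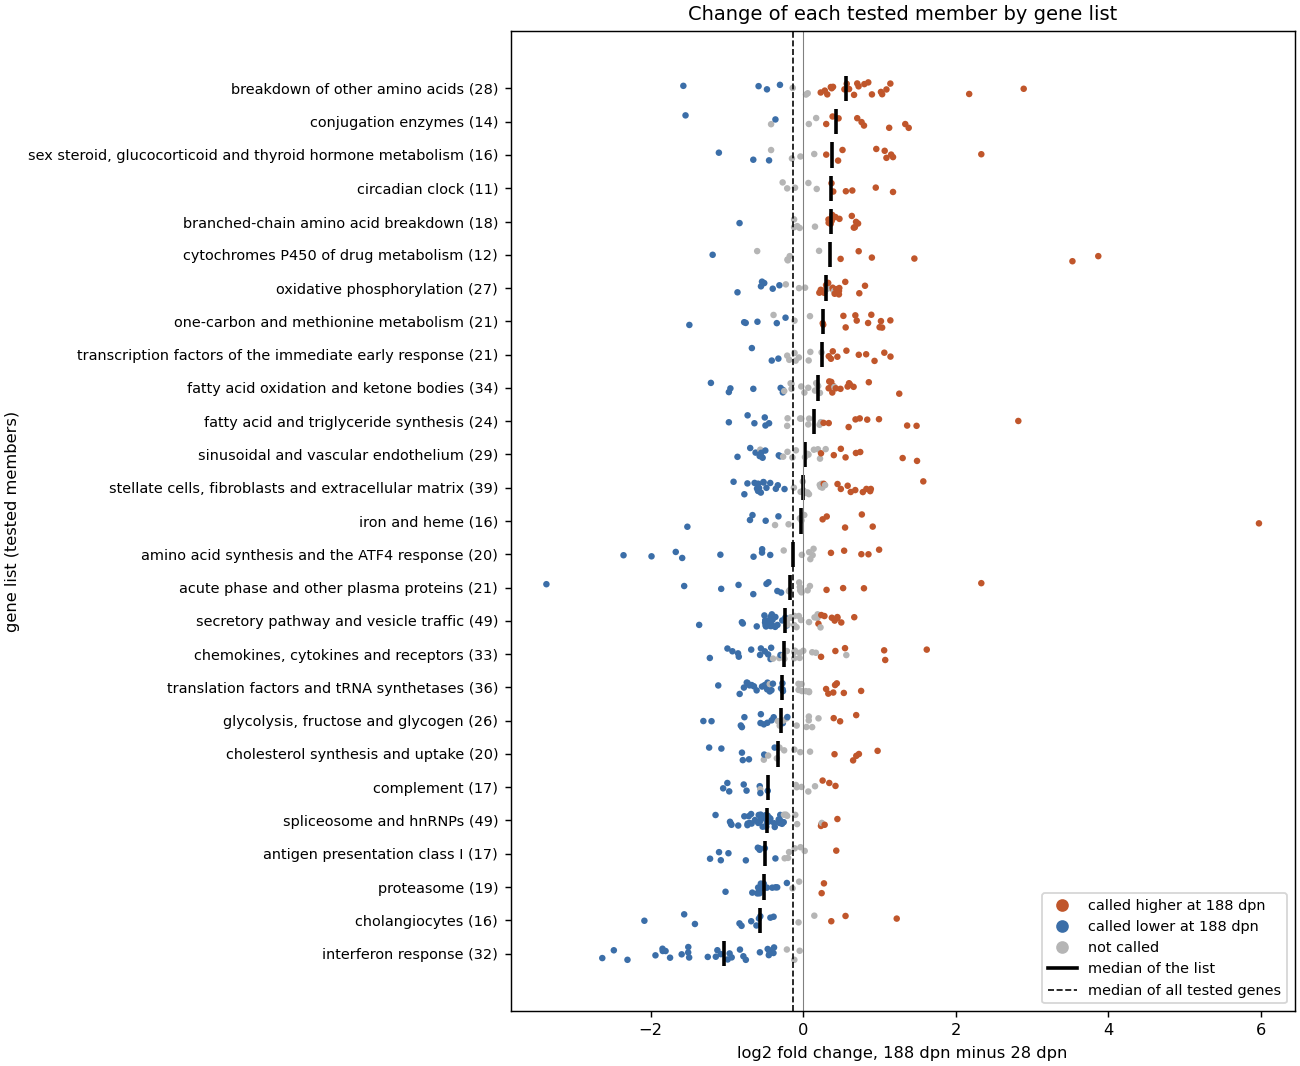
Log2 fold change (188 dpn minus 28 dpn) of every tested member of 27 gene lists, sorted by the list median (thick bar), with tested members in brackets and the median of all tested genes (-0.14) as a dashed line. Breakdown of other amino acids lies at the top (median 0.56) and the interferon response at the bottom (median -1.03), and HAMP, at 5.97, is the point farthest from 0. After quantile normalization the oxidative phosphorylation list had a median of -0.01.

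The genes that varied most between animals of the same stage were partly shared by the stages. Among 4456 genes above the array median in every animal at 28 dpn, the median SD on the log2 scale was 0.26 (n = 15), and among 4294 such genes at 188 dpn it was 0.30 (n = 16). HAMP and CYP2J34, which lay below the array median in some animals at 28 dpn, had SDs of 2.68 and 1.93 there and were not ranked. Of the ranked genes, CYP3A22, of the main drug-oxidising family, had the largest SD at both stages, 1.84 and 1.88. It ranged from 189 to 5972 (median 2199) at 28 dpn and from 202 to 6868 (median 365) at 188 dpn, and the difference between the stages was not called (-0.60, SE 0.63). PON3, a lactonase, had SDs of 1.70 and 1.42, the probe-sets annotated as RSF1 1.47 and 1.66 and as GALP 1.34 and 1.45. APOA4 and MBL2 were among the 6 at 188 dpn, with SDs of 1.77 and 1.43. Sex and litter, which are not in the labels, could not be set beside these values.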

How the data were processed

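Total RNA of 1 liver per array was hybridised to the Affymetrix Porcine array. The deposited intensity is 1 linear signal per probe-set, which the authors had scaled so that the trimmed mean was 500.1 to 500.2 on every array (GCOS 1.1.1 in the submitters' processing notes). The GC-RMA values and present calls of the study's methods were not used here. Probe-sets were named from the platform annotation: of 23999 that were not controls, 10069 had 1 symbol (6765 symbols), 198 several and 13732 none. Such names can be old, and probe-sets of 1 gene were called in opposite directions in 19 genes.

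From the deposited intensity, log2 values were computed and fitted with limma 3.58.1 (R 4.3.3; lmFit and eBayes, stage as the only term, two-sided). Probe-sets were tested whose signal was above the median of the array for 50% or more of the animals at 1 stage or both, with an SD over 0.25. q followed Storey. All within-stage correlations between arrays were below 0.92, so no array was counted as a copy. The number of arrays limits the precision, and the scan date is not given in the sources used here. Scripts were tested on simulated data.

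Of 55 gene lists, 5 (cell division, macrophages, protein folding, urea cycle, actin) were set aside. Members and lists were chosen with earlier results of these data known. Named are the 12 largest increases and 12 largest decreases without overlap among genes in no list set aside. They were ranked with signals below the array median raised to it. GPT stands in the urea cycle list and is therefore not among them. Also named are up to 5 called members with the largest change per list and members of a defining set that were not called. The lists the study drew from these arrays and those of the adequate protein diet are named too. So are the 6 most variable genes per stage among genes above the array median in every animal of that stage. A gene's role is textbook background. IREB2, MAT1A, MAT2B, MTHFD2, PEMT, PHGDH, PSAT1, FASN, KHK, PCK1, MDH1, HSD17B2, HSD3B1, IFIT1, SLA-DQA1, SLA-3, IL18, CDH5, PSMB5, PSMB6 and TXNRD1 rank lower and were named after their values were seen. The 15 alternatives changed the adjustment, the filters, the scaling, a floor or a pseudocount, the arrays and stages fitted, the moderation, and the choice of probe-set.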

Additional observations from a re-analysis of the deposited data

How the results depend on the processing

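The 15 alternatives were run. The directions of the counts depended on scaling: with array medians subtracted 3630 probe-sets were called higher and 2467 lower (1678 and 1095 genes). A log2 fold change of at least 1 left 658 probe-sets, 176 higher and 482 lower (307 genes, 84 and 223). The other 13 alternatives kept the numbers of called probe-sets and genes in each direction within 1.5 times those reported. None of 233 called genes that were followed through the alternatives changed direction, and 215 kept their call under every alternative that tested them other than the fold limit. Low signals limit the size of a change: with the array median as the floor AFP, KRT19, KLF4, TIE1, GPX7 and PEG10, among others, lost most of it. No paired analysis was possible because the labels give no replicate number shared by the stages.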
